A study of Mus musculus with 8 samples.

Results

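Among genes of protein folding, translocation and degradation in the endoplasmic reticulum (ER), 18 of the 41 that could be tested (43.9%) were lower in the livers of the starvation glucose group (SG) than in those of the feeding glucose group (FG), against 15.6 percent of all tested genes. None, 0 of 41, was called higher, against 3.73 percent of all tested genes. After the libraries were brought to a common centre by median-ratio scaling, 11 of the 41 were lower, against 5.06 percent. The set is a list of 42 gene symbols that covers the chaperones, disulfide isomerases, translocon, degradation machinery and stress sensors of the ER. All 42 were found among the 21358 genes of the table, 41 by their symbol and 1, Ero1lb, under its current symbol Ero1b. The filter on low values left out 1 gene, Fkbp2, a proline isomerase of the ER, which was listed at 0 in 6 of 8 libraries, at 0.184 FPKM in FG 96 and at 0.0645 FPKM in SG 104.

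All libraries came from mouse liver after 22 weeks of fasting on every second day. FG, with libraries 93, 94, 95 and 96, is named for glucose given while feeding, and SG, with libraries 101, 103, 104 and 105, for glucose given during starvation, as far as the labels say. Both groups went through the same fasting regimen, and no group without glucose or without fasting is analysed here. The labels give no strain, sex, age, batch, hour of collection or interval since food, so effects of a difference in any of these cannot be told apart from those of the feeding state. The series text counts 4 mice a group, but the labels do not say that each library is a separate animal. The p-values therefore set the group difference against the spread between libraries of a group, and this spread may be technical in part.

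Secreted and membrane proteins enter the ER through the Sec61 channel, fold there with the help of chaperones such as BiP, and form disulfide bonds under the isomerases of the PDI family. Proteins that fail to fold are carried back to the cytosol and degraded, a route called ER-associated degradation (ERAD). When unfolded proteins build up, the sensors IRE1, PERK and ATF6 start the unfolded protein response (UPR), in which IRE1 splices the Xbp1 mRNA and the factors XBP1 and ATF6 raise the transcription of chaperone and ERAD genes. Hepatocytes carry much rough ER because they secrete albumin and most other plasma proteins, and their UPR genes are known to follow feeding.

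Part of this transcriptional control runs through the ER stress response element (ERSE), made of CCAAT, 9 free bases and CCACG, at which ATF6 binds together with NF-Y. The promoter windows of RefSeq (GRCm38.p6, 250 bases before to 50 bases after the transcript start) were searched on both strands, and 36 of the 42 genes had a window. The exact element was present in 10 of these 36 genes, and in 37 of 27025 genes with a window (0.137%). The related ERSE-II, made of ATTGG, 1 free base and CCACG, and so sharing CCACG with the first, was found in Dnajb11 and Herpud1, and in 12 genes in all (0.0444%). The core TGACGTGG of the UPR element bound by XBP1 was found in 0 of the 36 and in 193 of all genes (0.714%), which says only that these letters are not in these windows. The 11 ERSE matches are shown, each read on the strand of the motif with its fixed parts in capitals, since an exact match is rare among all windows:
Hspa5, chr2:34772025-34772043: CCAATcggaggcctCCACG
Hsp90b1, distal, chr10:86705638-86705656: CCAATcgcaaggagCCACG
Hsp90b1, proximal, chr10:86705533-86705551: CCAATcgtgcctcaCCACG
Calr, chr8:84847075-84847093: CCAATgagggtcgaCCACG
Canx, chr11:50325800-50325818: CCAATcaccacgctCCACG
Creld2, chr15:88819520-88819538: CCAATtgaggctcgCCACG
Dnajc3, chr14:118937827-118937845: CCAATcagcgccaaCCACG
Pdia6, chr12:17266491-17266509: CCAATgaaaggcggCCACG
Ero1b, chr13:12565682-12565700: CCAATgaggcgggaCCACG
Syvn1, chr19:6046532-6046550: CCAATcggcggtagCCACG
Derl3, chr10:75893242-75893260: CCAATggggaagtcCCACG

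Their first base lay between 44 bases (Syvn1) and 212 bases (the distal Hsp90b1 site) before the start, and 6 of the 11 sites pointed along the gene. In 5 of them the free bases held GGC on the motif's strand, as in the site of Hspa5. The 250 bases before the start, 5′ to 3′ on the gene's strand with each element in capitals, are shown for 3 genes whose RNA behaved differently: Hspa5 and Ero1b, which fell, and Hsp90b1, which has 2 elements and whose log2 fold change was near 0:
Hspa5, plus strand, chr2:34771840-34772089: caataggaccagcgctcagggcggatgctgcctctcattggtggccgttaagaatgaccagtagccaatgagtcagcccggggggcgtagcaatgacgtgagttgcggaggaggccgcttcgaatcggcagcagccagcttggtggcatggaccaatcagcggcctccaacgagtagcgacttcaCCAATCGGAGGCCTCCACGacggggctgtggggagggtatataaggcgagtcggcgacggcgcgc
Ero1b, plus strand, chr13:12565633-12565882: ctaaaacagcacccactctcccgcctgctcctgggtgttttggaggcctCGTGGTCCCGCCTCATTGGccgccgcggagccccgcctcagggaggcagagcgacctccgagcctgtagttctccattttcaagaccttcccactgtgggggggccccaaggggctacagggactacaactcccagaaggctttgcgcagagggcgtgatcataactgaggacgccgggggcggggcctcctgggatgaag
Hsp90b1, minus strand, chr10:86705445-86705694: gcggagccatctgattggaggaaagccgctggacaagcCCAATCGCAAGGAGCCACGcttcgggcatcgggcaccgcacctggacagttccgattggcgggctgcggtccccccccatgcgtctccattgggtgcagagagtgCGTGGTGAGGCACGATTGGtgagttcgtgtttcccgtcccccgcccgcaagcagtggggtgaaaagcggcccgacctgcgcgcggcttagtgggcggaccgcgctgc

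Comparing the groups shows how liver RNA differed between FG and SG, which are named for the state, fed or fasted, in which glucose was taken. Levels are given in FPKM, counted fragments divided by gene length and by the library total, and tests were made with limma on log2(FPKM + 1), a scale on which the change of low genes is understated. Fold changes are SG minus FG, and genes with an adjusted p under 0.05, over all 9867 tested, count as called. The 18 ER genes called lower and the 0 called higher are counted in this way. At an unadjusted p below 0.05, 26 were lower and 0 higher, but all tested genes were not counted at that threshold. The median log2 fold change of the ER genes was -0.44, against -0.14 for all tested genes. Of their 41 values 35 were negative, against 6898 of the 9867 over all tested genes. In bulk liver RNA, fewer cells of a type and less RNA per cell cannot be told apart.

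Because most genes of the table lay a little lower in SG, the same test was run after median-ratio scaling, which moved the median of all genes to 0.0059. On that scale 11 of the 41 ER genes (26.8%) were called lower, against 5.06 percent of all tested genes, and 0 higher, against 5.52 percent, and their median log2 fold change was -0.26. All 11 were also called on the deposited scale. In 19 of the 41 genes (46.3%) every FG library was above every SG library, against 21.8 percent of all tested genes, and in 0 every SG library was above every FG library, against 4.35 percent. The list was compared with all genes by these counts only, with no test of the list, and it shares genes with a folding list already known to be lower in these samples.

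**Figure D1:**
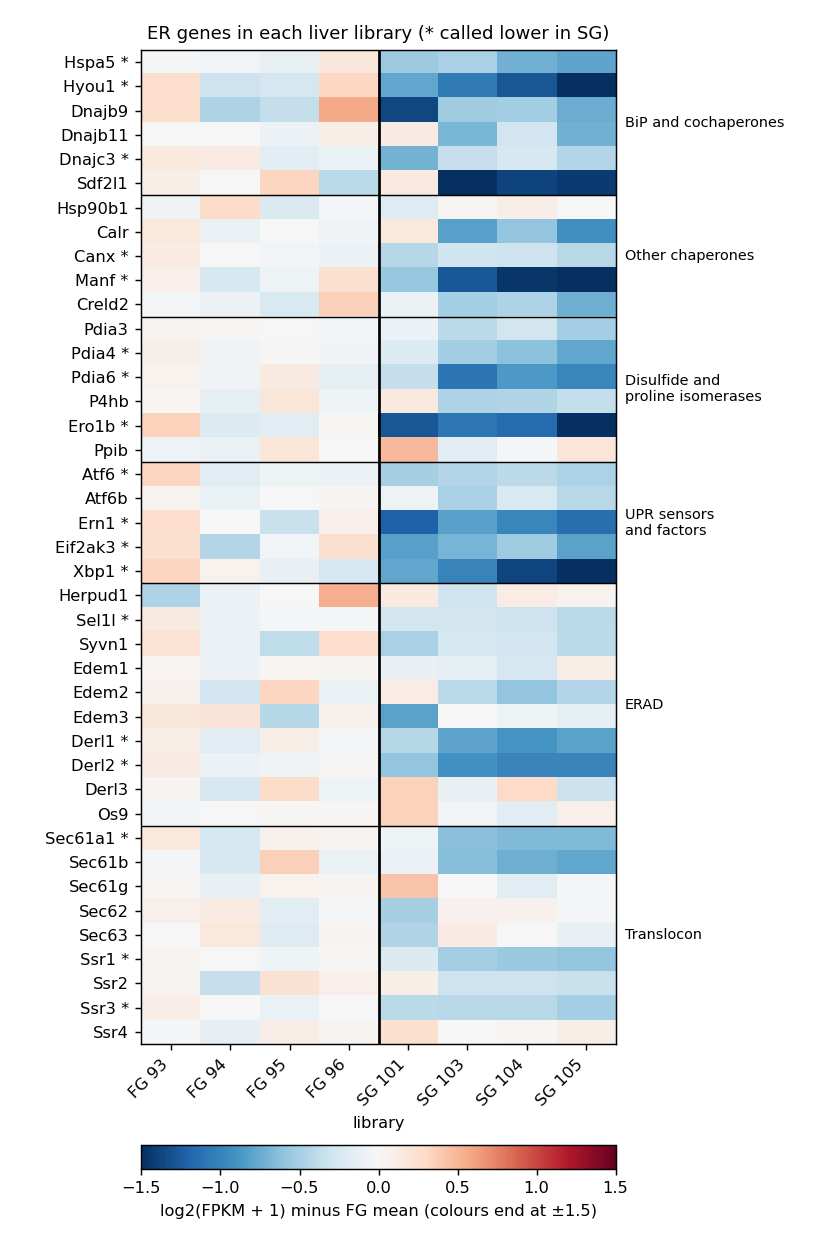
Each of the 41 tested ER genes (rows, grouped by role) in each of the 8 liver libraries (columns), coloured by log2(FPKM + 1) minus the mean of the 4 FG libraries, with colours ending at 1.5 in both directions. The 18 genes marked with an asterisk were called lower in SG; SG 101, the first SG column, was paler than the other SG columns in many rows and darker in Dnajb9, Dnajc3, Ern1 and Edem3.

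Among the BiP system, 3 of 6 genes fell, against 15.6 percent of all tested genes. Without SG 101, 5 of 6 were called lower, against 19.2 percent of all tested genes. Hspa5 (chr2:34772090-34776529) encodes BiP, the Hsp70 chaperone of the ER lumen. It stood at 179, 175, 168 and 204 FPKM in FG 93, 94, 95 and 96, and at 124, 129, 109.8 and 105 FPKM in SG 101, 103, 104 and 105, the order kept for all genes that follow. All FG libraries were above all SG libraries, and the gene fell with a log2 fold change of -0.64 (SE 0.0985, limma adjusted p = 0.00541), or -0.46 (adjusted p = 0.0233) after median-ratio scaling. Hyou1, the large Hsp70-like protein that exchanges nucleotide on BiP, was measured at 34.2, 22.6, 23.4 and 35.1 FPKM in FG and at 15.99, 13.1, 11.01 and 7.804 FPKM in SG. FG 93 and FG 96 were its highest libraries. No SG library reached the lowest FG library, and the SG mean was 41.5% of the FG mean. Hyou1 fell with a log2 fold change of -1.21 (SE 0.22, limma adjusted p = 0.00879), or -1.05 (adjusted p = 0.018) after median-ratio scaling. Dnajc3 (p58IPK), a J-domain cochaperone, had 50.3, 49.5, 40.7 and 42.2 FPKM in FG and 27.4, 35.6, 38.3 and 33.2 FPKM in SG, with SG 101 lowest. Its fold change of -0.44 (SE 0.121, limma adjusted p = 0.0361) was not called after median-ratio scaling (adjusted p = 0.158) and lost its call in 5 of the 8 fits without 1 library, namely FG 93, 94 or 96 or SG 103 or 105 (adjusted p up to 0.102).

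The other cochaperones of BiP were not called with all libraries. Dnajb9 (ERdj4), which also binds IRE1, was at 38.99, 23.1, 24.9 and 48.4 FPKM in FG and 11.9, 22.1, 22.3 and 18.9 FPKM in SG. The groups did not overlap, but FG 93 and FG 96 stood well above FG 94 and FG 95, and the fold change was -0.79 (SE 0.264, limma adjusted p = 0.0647). Dnajb9 was called without FG 94 (adjusted p = 0.049). Sdf2l1, an ER luminal protein that works with BiP and J-domain cochaperones, split the SG group. It was at 18.9, 17.7, 22.3 and 13.1 FPKM in FG and at 19.7, 5.01, 6.13 and 5.92 FPKM in SG. Here SG 101 lay among the FG libraries and the other 3 SG libraries below them all. The fold change of Sdf2l1 was -1.08 (SE 0.359, limma adjusted p = 0.0645) with all libraries and was called without SG 101 (log2 fold change -1.49, SE 0.164, limma adjusted p = 0.00234). Dnajb11 (ERdj3) behaved alike in SG 101, which was its highest library, with 20.3, 20.4, 19.1 and 21.8 FPKM in FG and 22.3, 12.3, 16.5 and 11.97 FPKM in SG. For Dnajb11 the log2 fold change was -0.39 (limma adjusted p = 0.145), and -0.56 (limma adjusted p = 0.0157) without SG 101.

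Of the 5 other chaperones, Manf and Canx fell (40%), against 15.6 percent of all tested genes. Manf, a small secreted and ER-resident protein that binds BiP, was at 76.8, 61.3, 68.6 and 85.8 FPKM in FG and 48.5, 29.4, 25.8 and 18.03 FPKM in SG. SG 101 was the highest and SG 105 the lowest SG library, and no SG library reached the FG range. The mean of Manf went from 73.1 ± 10.6 to 30.4 ± 12.9 FPKM (SD, n = 4 each). Manf fell with a log2 fold change of -1.31 (SE 0.252, limma adjusted p = 0.011) and kept its call after median-ratio scaling (log2 fold change -1.14, adjusted p = 0.0233). Canx (calnexin), the membrane lectin that holds glycoproteins during folding, was at 79.5, 73.2, 70.6 and 68.2 FPKM in FG and 53.8, 58.7, 58.3 and 54.4 FPKM in SG. Its libraries lay close together within each group, and its fall, with a log2 fold change of -0.37 (SE 0.0801, limma adjusted p = 0.0169), was not called after median-ratio scaling (adjusted p = 0.11) or without FG 93 (0.0521).

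Calr (calreticulin), the soluble partner of calnexin and the second most abundant of these genes, was at 385, 322, 348 and 334 FPKM in FG and 387, 197, 229.6 and 182 FPKM in SG. SG 101 was above all FG libraries, and the other 3 SG libraries were below them. Calr had a fold change of -0.54 (SE 0.211, limma adjusted p = 0.1) with all libraries and was called without SG 101 (log2 fold change -0.78, SE 0.106, limma adjusted p = 0.00417). Creld2, a secreted ER stress protein, had the same arrangement in a weaker form, with 14.8, 14.2, 12.8 and 19.6 FPKM in FG and 14.2, 10.3, 10.8 and 8.73 FPKM in SG. For Creld2 the log2 fold change was -0.45 (limma adjusted p = 0.0823), and -0.57 (limma adjusted p = 0.028) without SG 101. Hsp90b1 (GRP94), the Hsp90 chaperone of the ER, was not called: its values of 204, 258, 181 and 207 FPKM in FG and 185, 216, 226 and 209.8 FPKM in SG overlapped widely. Its fold change was -0.016 (SE 0.118, limma adjusted p = 0.938), and its sign turned after median-ratio scaling (log2 fold change 0.16, adjusted p = 0.412).

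Among the disulfide and proline isomerases, 3 of 6 tested genes fell, against 15.6 percent of all tested genes. The largest fall of all 41 genes was that of Ero1b (chr13:12565818-12609533), the ER oxidase that reoxidises PDI. Ero1b was at 23.00, 15.4, 15.8 and 18.1 FPKM in FG and 6.78, 7.87, 7.49 and 4.31 FPKM in SG. The highest SG library, SG 103, was well below the lowest FG library, FG 94, and the SG mean was 36.5% of the FG mean. Ero1b fell with a log2 fold change of -1.34 (SE 0.183, limma adjusted p = 0.00327), or -1.18 (adjusted p = 0.00461) after median-ratio scaling, and was called without any 1 library on both scales. Pdia6, a PDI family member that also limits IRE1 signalling, went from 119.6, 111, 127 and 105 FPKM in FG to 89.9, 53.5, 63.2 and 58.3 FPKM in SG. SG 101 lay between the FG libraries and the other SG libraries, and the fold change was -0.82 (SE 0.153, limma adjusted p = 0.00972), or -0.65 (adjusted p = 0.0307) after median-ratio scaling. Pdia4 (ERp72) was at 65.3, 59.3, 62.1 and 59.2 FPKM in FG and 53.4, 42.4, 39.7 and 35.5 FPKM in SG. The groups did not overlap and SG 101 was nearest to FG. The Pdia4 fall, with a log2 fold change of -0.53 (SE 0.121, limma adjusted p = 0.0191), was not called after median-ratio scaling (adjusted p = 0.083), nor without FG 93 or SG 104 (highest adjusted p = 0.0585).

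Pdia3 (ERp57), the isomerase that works on glycoproteins with calnexin and calreticulin, was at 134, 131, 129 and 126 FPKM in FG and 122, 98.3, 107 and 91.2 FPKM in SG. Its groups did not overlap, yet the fold change of -0.32 (SE 0.0984, limma adjusted p = 0.0509) stayed just short of a call; without SG 101 it was -0.39 (limma adjusted p = 0.0147). P4hb (PDI), the most abundant gene of the set, was at 597, 532, 662 and 556 FPKM in FG and 645, 424, 429 and 458 FPKM in SG, with SG 101 inside the FG range and the other SG libraries below it. For P4hb the log2 fold change was -0.28 (limma adjusted p = 0.194), and -0.42 (limma adjusted p = 0.0198) without SG 101. Ppib, cyclophilin B, a proline isomerase of the ER, went the other way without being called, at 187, 185, 225 and 196 FPKM in FG and 278, 178, 194 and 225 FPKM in SG. SG 101 was the highest of its 8 libraries and the groups overlapped. For Ppib the log2 fold change was 0.12 (limma adjusted p = 0.568). Of its annotated exon bases 24.96% overlap another gene, Snx22, on the opposite strand. Overlaps were next largest for Hsp90b1 (15.7%, 5.38% on the same strand), Ssr2 (12.8%), Sec62 (11.7%) and Manf (9.25%). The sources used here do not say whether reads were counted by strand.

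The sensors and transcription factors of the UPR held the largest share of calls, with 4 of 5 genes lower and 3 of 5 after median-ratio scaling. Over all tested genes these shares were 15.6 percent and 5.06 percent. Ern1 (chr11:106397620-106487796), which encodes IRE1 alpha, the kinase and RNase that splices Xbp1 mRNA, was at 19.3, 16.2, 12.6 and 17.02 FPKM in FG and 6.401, 8.71, 7.66 and 6.83 FPKM in SG. The groups were apart, and SG 101 was the lowest library. Ern1 fell with a log2 fold change of -1.03 (SE 0.14, limma adjusted p = 0.00319), or -0.87 (adjusted p = 0.00543) after median-ratio scaling. Xbp1 (chr11:5520641-5525993), its target and a transcription factor for ER biogenesis, was at 129, 108, 95.9 and 86.2 FPKM in FG and 59.97, 51.4, 39.2 and 31.6 FPKM in SG. Gene-level FPKM do not separate its spliced from its unspliced mRNA. Every SG library was below every FG library. Xbp1 fell with a log2 fold change of -1.21 (SE 0.2, limma adjusted p = 0.00675), or -1.04 (adjusted p = 0.0112) after median-ratio scaling, and moved from rank 9 to rank 14 of the 41 genes by mean FPKM. Ern1 and Xbp1 were called without any 1 library on both scales.

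Eif2ak3 encodes PERK, the kinase that slows translation during ER stress, and was low, at 5.48, 3.04, 4.32 and 5.46 FPKM in FG and 2.101, 2.37, 2.79 and 2.14 FPKM in SG. FG 94 came closest to the SG libraries. The fall of Eif2ak3, a log2 fold change of -0.71 (SE 0.159, limma adjusted p = 0.0178), was called after median-ratio scaling (log2 fold change -0.58, adjusted p = 0.0456) but not without FG 93 (adjusted p = 0.0534). Atf6, the sensor whose cleaved form is a transcription factor, was at 15.6, 10.7, 11.6 and 11.5 FPKM in FG and 8.33, 8.74, 9.09 and 8.52 FPKM in SG. The 4 SG libraries lay within a narrow band below all FG libraries and FG 93 stood above the rest. Its fall, with a log2 fold change of -0.45 (SE 0.116, limma adjusted p = 0.0289), was not called after median-ratio scaling (adjusted p = 0.109), nor without FG 95 or any of SG 103, 104 and 105 (adjusted p up to 0.0663). Its relative Atf6b was at 6.49, 5.69, 6.24 and 6.39 FPKM in FG and 5.81, 4.13, 5.15 and 4.397 FPKM in SG, where SG 101 lay just above FG 94, and was not called. For Atf6b the log2 fold change was -0.30 (limma adjusted p = 0.08), and -0.38 (limma adjusted p = 0.0288) without SG 101.

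**Figure D2:**
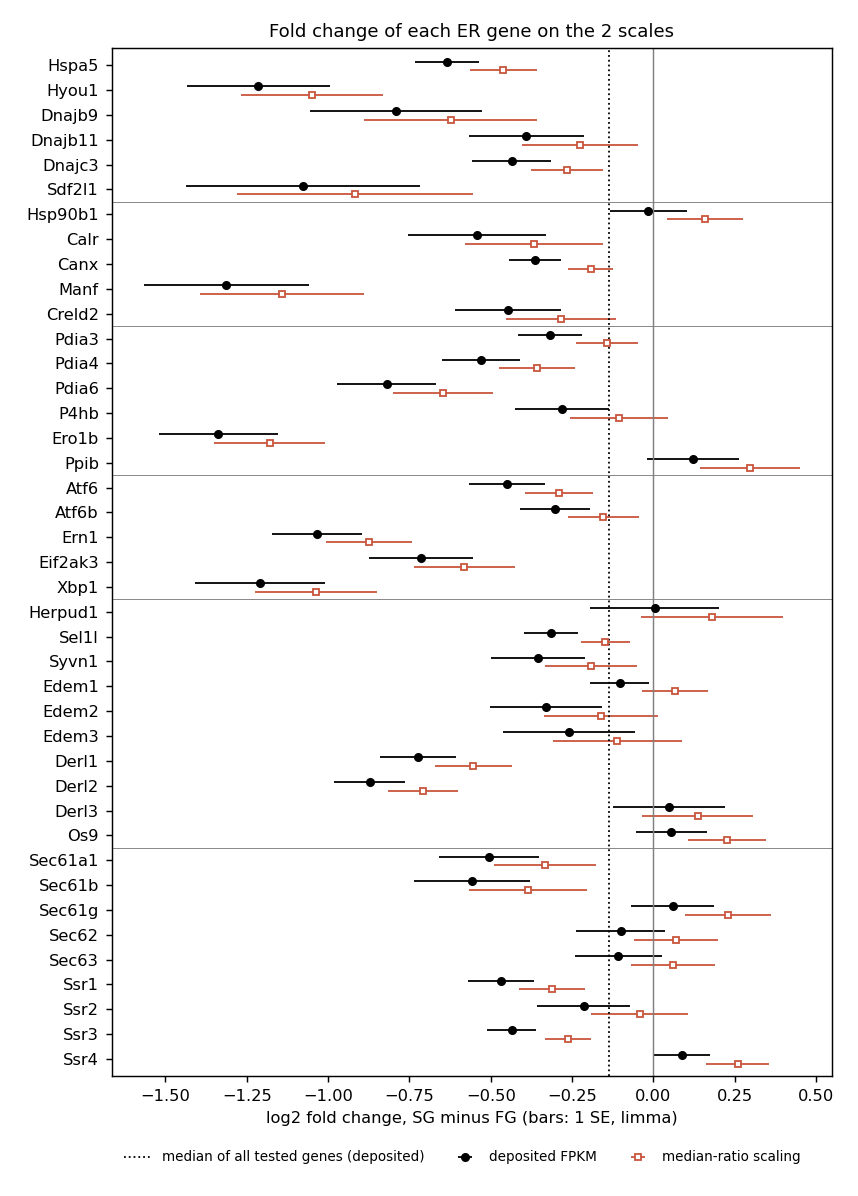
Log2 fold change, SG minus FG, of each of the 41 tested ER genes with bars of 1 SE, on the deposited FPKM (black circles) and after median-ratio scaling (red squares); the dotted line marks the median of all tested genes on the deposited scale, -0.14, and grey lines part the roles. Ero1b, Manf, Hyou1, Xbp1, Sdf2l1 and Ern1 lie farthest to the left on both scales, and Hsp90b1, Edem1, Sec62 and Sec63 change sign between them.

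In ERAD, 3 of 10 genes, a pair of derlins and Sel1l, fell, against 15.6 percent of all tested genes. Derl2, a membrane protein of the retrotranslocation complex, was at 23.6, 20.2, 20.5 and 21.7 FPKM in FG and 13.9, 10.97, 10.3 and 10.3 FPKM in SG. Both groups were tight, and SG 101 was again the highest of its group. Derl2 fell with a log2 fold change of -0.87 (SE 0.109, limma adjusted p = 0.00235), the smallest adjusted p of the set, and of -0.71 (adjusted p = 0.00598) after median-ratio scaling. It was called without any 1 library on both scales. Derl1, its paralog, was at 49.3, 41.01, 48.7 and 44.7 FPKM in FG and 33.9, 26.1, 24.3 and 25.9 FPKM in SG. The groups were apart, with SG 101 highest in SG. Derl1 fell with a log2 fold change of -0.72 (SE 0.117, limma adjusted p = 0.00615), or -0.55 (adjusted p = 0.0204) after median-ratio scaling. The third derlin, Derl3, was near the filter at 1.07, 0.706, 1.44 and 0.904 FPKM in FG and 1.56, 0.855, 1.45 and 0.615 FPKM in SG, counted on 32 to 82 fragments, and its groups overlapped throughout. For Derl3 the log2 fold change was 0.048 (limma adjusted p = 0.863).

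Sel1l, the adaptor that holds the ligase complex together, was at 28.1, 23.8, 24.9 and 25.1 FPKM in FG and 20.8, 20.8, 20.4 and 18.9 FPKM in SG. The groups did not overlap. Its fall, with a log2 fold change of -0.32 (SE 0.0825, limma adjusted p = 0.0304), was the smallest among the called genes, with an SG mean at 79.5% of the FG mean, and was not called after median-ratio scaling (adjusted p = 0.235). The Sel1l call was also lost in 6 of the 8 fits without 1 library, all but those without FG 94 or SG 101 (highest adjusted p = 0.0859). Syvn1 (HRD1), the ubiquitin ligase of that complex, was at 18.6, 14.8, 11.9 and 18.97 FPKM in FG and 11.00, 13.04, 12.8 and 11.8 FPKM in SG, where FG 95 lay inside the SG range. For Syvn1 the log2 fold change was -0.36 (limma adjusted p = 0.112), and it was called without FG 95 (adjusted p = 0.0378). Herpud1, which recruits that ligase and is a known UPR target, ranged widely in FG, at 137, 179, 191 and 278 FPKM, and was at 211, 155, 205 and 197 FPKM in SG. Its lowest and its highest library were both FG, 93 and 96. For Herpud1 the log2 fold change was 0.0047 (limma adjusted p = 0.988).

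The mannosidase-like proteins and lectins that pick glycoproteins for degradation were not called. Edem1 was at 30.7, 28.2, 30.7 and 31.1 FPKM in FG and 27.9, 27.4, 25.1 and 32.02 FPKM in SG, with SG 105 highest of all and the other SG libraries below FG. For Edem1 the log2 fold change was -0.10 (limma adjusted p = 0.444), and its sign turned after median-ratio scaling (log2 fold change 0.066, adjusted p = 0.712). Edem2 was at 34.9, 27.2, 41.8 and 31.00 FPKM in FG and 35.99, 24.9, 21.8 and 24.4 FPKM in SG, with SG 101 inside the FG range. For Edem2 the log2 fold change was -0.33 (limma adjusted p = 0.204), and -0.48 (limma adjusted p = 0.0429) without SG 101. Edem3 was at 7.31, 7.49, 4.49 and 6.75 FPKM in FG and 3.25, 6.36, 6.02 and 5.67 FPKM in SG, and here SG 101 alone lay below all FG libraries. For Edem3 the log2 fold change was -0.26 (limma adjusted p = 0.389). Os9, the lectin that brings substrates to SEL1L, was at 41.4, 42.4, 43.1 and 43.1 FPKM in FG, within a few percent of each other, and at 54.4, 41.4, 37.9 and 44.7 FPKM in SG, with SG 101 highest. For Os9 the log2 fold change was 0.055 (limma adjusted p = 0.751).

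At the translocon, 3 of 9 genes fell, against 15.6 percent of all tested genes, and the subunits of one complex did not share a value. Ssr1 and Ssr3 encode the alpha and gamma subunits of the translocon-associated protein (TRAP) complex, which sits beside Sec61. Ssr3 was at 100.3, 94.04, 87.4 and 93.8 FPKM in FG and 70.8, 70.2, 70.05 and 65.4 FPKM in SG. There was little spread in either group, and Ssr3 fell with a log2 fold change of -0.44 (SE 0.0758, limma adjusted p = 0.00801), or -0.26 (adjusted p = 0.0476) after median-ratio scaling. Ssr1 was at 10.6, 10.2, 9.803 and 10.4 FPKM in FG and 8.71, 6.94, 6.65 and 6.45 FPKM in SG. SG 101 lay between the FG libraries and the rest of SG, and the Ssr1 fall, with a log2 fold change of -0.47 (SE 0.102, limma adjusted p = 0.0163), was not called after median-ratio scaling (adjusted p = 0.083). The remaining TRAP subunits were not called: Ssr2 was at 59.4, 45.3, 67.8 and 61.2 FPKM in FG and 61.7, 46.6, 46.6 and 45.5 FPKM in SG, where SG 101 stood above the other SG libraries and FG 94 was lowest of all. For Ssr2 the log2 fold change was -0.21 (limma adjusted p = 0.318). Ssr4 was at 69.01, 63.9, 74.9 and 72.1 FPKM in FG and 82.8, 69.5, 71.2 and 74.1 FPKM in SG, with SG 101 highest of all. For Ssr4 the log2 fold change was 0.087 (limma adjusted p = 0.513). The difference between subunits was not tested.

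Sec61a1, the pore-forming subunit of the Sec61 channel, was at 65.2, 48.6, 61.2 and 60.2 FPKM in FG and 55.96, 37.5, 36.5 and 36.5 FPKM in SG. SG 101 lay among the FG libraries, so the groups overlapped (exact two-sided permutation p = 0.0571), and the fold change was -0.51 (SE 0.154, limma adjusted p = 0.0483). Median-ratio scaling ended that call (adjusted p = 0.201), as did leaving out any 1 library other than FG 94 or SG 101 (adjusted p up to 0.128). Sec61b, the beta subunit, was at 85.3, 73.9, 112 and 81.5 FPKM in FG and 82.1, 55.8, 52.1 and 50.2 FPKM in SG, again with SG 101 inside the FG range. For Sec61b the log2 fold change was -0.56 (limma adjusted p = 0.0554), and -0.72 (limma adjusted p = 0.0117) without SG 101. Sec61g, the gamma subunit, was at 36.4, 33.1, 37.3 and 36.9 FPKM in FG and 48.5, 36.00, 31.7 and 35.4 FPKM in SG and did not separate the groups. For Sec61g the log2 fold change was 0.059 (limma adjusted p = 0.769). Sec62 and Sec63, which help proteins into the channel after translation, did not either. Sec62 was at 34.97, 36.04, 29.5 and 32.3 FPKM in FG and 23.2, 34.6, 34.7 and 32.4 FPKM in SG (log2 fold change -0.10, limma adjusted p = 0.629). Sec63 was at 23.3, 26.1, 20.2 and 24.01 FPKM in FG and 16.9, 25.4, 23.5 and 21.5 FPKM in SG. For Sec63 the log2 fold change was -0.11 (limma adjusted p = 0.599). In both, SG 101 was the one SG library below the FG range.

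The size of the falls differed widely within the set. Among the 18 called genes the SG mean was 36.5% to 79.5% of the FG mean, and in 5 genes, Ero1b, Hyou1, Manf, Xbp1 and Ern1, it was below 50%. Of the 18, 17 had groups that did not overlap, each with an exact two-sided permutation p of 0.0286, the smallest that the 70 ways of dividing 8 libraries into 4 and 4 can give. Calls held without any 1 library on the deposited scale for 11 genes: Hspa5, Hyou1, Manf, Pdia6, Ero1b, Ern1, Xbp1, Derl1, Derl2, Ssr1 and Ssr3. After median-ratio scaling 4 genes, Ero1b, Ern1, Xbp1 and Derl2, were called with all libraries and without any 1 of them. By level, which FPKM allow to be compared between genes because they are per length, the set spanned P4hb at 587 FPKM to Derl3 at 1.03 FPKM in the FG mean, and 9 genes were at 100 FPKM or above.

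The libraries did not contribute alike. SG 101 was the highest SG library in 27 of the 41 genes (65.9%), against 35.5% of all tested genes. It was the lowest SG library in 11 (26.8%), against 35.0% of all tested genes. In 9 of the 41 (22.0%), against 9.15% of all tested genes, leaving it out was enough to put every FG library above every SG library: Dnajb11, Sdf2l1, Calr, Creld2, P4hb, Atf6b, Edem2, Sec61a1 and Sec61b. Summed over the set, SG 101 held 3051 FPKM and the other SG libraries 2316 to 2396 FPKM, while the FG libraries held 3030 to 3261 FPKM. Abundant genes such as P4hb and Calr weigh most in this sum. Over all tested genes SG 101 also had the highest sum, 489234 FPKM, against 461370 to 479260 FPKM in the other libraries. SG 101 was not high in every gene. It was the highest of all 8 libraries in 7 of the 41 genes and the lowest in 10, counts not made over all tested genes. The 10 were Dnajb9, Dnajc3, Canx, Atf6, Ern1, Eif2ak3, Syvn1, Edem3, Sec62 and Sec63. Without SG 101, 27 of the 41 genes (65.9%) were called lower, against 19.2 percent of all tested genes, and 16 after median-ratio scaling, against 7.99 percent. The 9 genes gained on the deposited scale were Dnajb11, Sdf2l1, Calr, Creld2, Pdia3, P4hb, Atf6b, Edem2 and Sec61b, and 0 calls were lost. In FG, library 94 was the lowest of its group in 21 of the 41 genes (51.2%), against 24.9% of all tested genes.

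**Figure D3:**
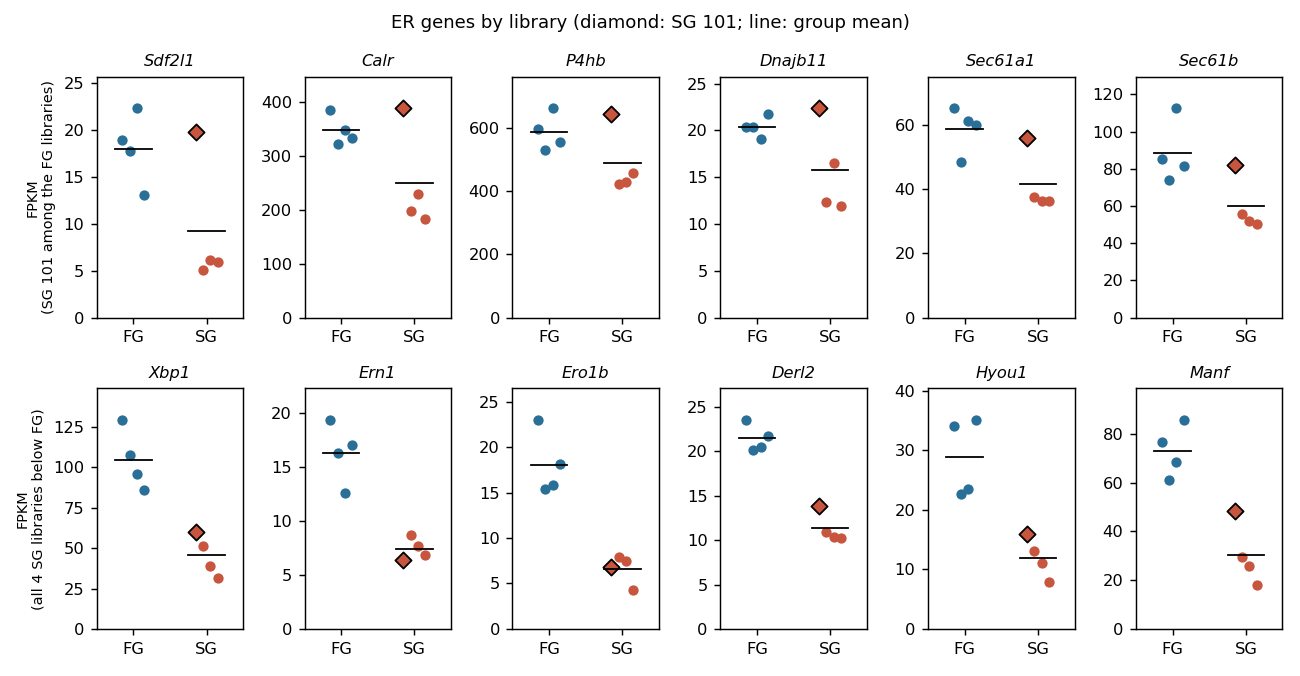
FPKM of 12 ER genes in the 4 FG libraries (blue) and the 4 SG libraries (red), with SG 101 as a diamond and a line at each group mean; every axis starts at 0. In the upper row SG 101 lies among or above the FG libraries while the other 3 SG libraries lie below them, and in the lower row all 4 SG libraries lie below the FG libraries.

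Markers of other cells were set beside these values. Alb, the albumin gene and the leading hepatocyte marker, was at 41490.4 FPKM in the FG mean and was not called (log2 fold change 0.0068, limma adjusted p = 0.975). Of 10 hepatocyte markers 0 fell, against 15.6 percent of all tested genes, and 3, Cps1, Hpd and Apoa1, were called higher, against 3.73 percent. With 1 library left out, Cps1 was called in 7 of 8 fits (not without SG 105, adjusted p = 0.0517), Hpd in 2 (those without FG 94 or FG 96) and Apoa1 in 0. Without SG 101, 1 of the 10 hepatocyte markers was called lower (10%), against 19.2 percent of all tested genes. Plasma and B cells, which are rich in ER, gave 0 tested markers of 8 found and summed levels of 1.79 to 4.795 FPKM in FG and 1.79 to 5.76 FPKM in SG. Pancreatic acinar markers, from another cell type rich in ER, were uneven: their sum was 397 FPKM in FG 94, 67.4 in FG 96 and 58.1 in SG 101. In the other 5 libraries it was 6.76 to 22.8 FPKM, and 1 to 7 of the 10 were at 0. Their part in the result was not tested. A fit without FG 94 and FG 96, which still holds SG 101, called 12 of 41 ER genes lower (29.3%), against 8.93 percent of all tested genes, and 0 higher, against 2.33 percent, with a median log2 fold change of -0.43. Sums of endothelial markers (86.6 to 107 FPKM in FG, 68.1 to 79.4 in SG) and biliary markers (21.9 to 27.7 in FG, 13.04 to 19.1 in SG) did not overlap between the groups. In these lists 1 of 8 and 1 of 2 tested markers were called lower, and their part in the result was not tested. Kupffer cell and stellate cell sums overlapped, with 0 of 10 and 0 of 7 markers called.

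Genes that work beside this set were taken from 5 further lists. Together 36 of their 114 tested genes (31.6%) were lower and 2 higher, against 15.6 percent and 3.73 percent of all tested genes. Their median log2 fold change was -0.22, against -0.14 for all tested genes. After median-ratio scaling 9 (7.89%) were lower, a little above the 5.06 percent of all tested genes. On that scale 3 of the 114 were higher, a smaller share than the 5.52 percent of all tested genes. In the list of targeting to the ER and signal peptidase, 7 of 20 fell (35%), 2 after median-ratio scaling (10%). The leading genes there were Hspa13, an Hsp70-related microsomal protein (log2 fold change -0.91, limma adjusted p = 0.00397), Srprb, a subunit of the receptor for the signal recognition particle (log2 fold change -0.70, limma adjusted p = 0.00801), and Tram1, a translocon-associated protein (log2 fold change -0.47, limma adjusted p = 0.0111). In the list of oligosaccharyltransferase and the glycan checkpoint, 9 of 18 fell (50%), 2 after median-ratio scaling (11.1%). It was led by Lman1, a cargo lectin of ER exit (log2 fold change -0.61, limma adjusted p = 0.00343), Uggt1, the glucosyltransferase that tags misfolded glycoproteins (log2 fold change -0.54, limma adjusted p = 0.0124), and Mogs, glucosidase I (log2 fold change -0.65, limma adjusted p = 0.0134). After median-ratio scaling Hspa13, Srprb, Lman1 and Uggt1 were called, and Tram1 and Mogs were not (adjusted p = 0.0686 and 0.0592). The oligosaccharyltransferase subunit Rpn1 was not called (log2 fold change -0.23, limma adjusted p = 0.226).

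After median-ratio scaling, 1 of 30 further redox and folding genes was lower and 1 higher, against 5.06 percent and 5.52 percent of all tested genes. On the deposited scale 7 of the 30 (23.3%) were called lower and 0 higher, against 15.6 percent and 3.73 percent. Vkorc1l1, a vitamin K epoxide reductase paralog (log2 fold change -0.58, limma adjusted p = 0.00375), Kdelr2, a receptor that returns ER proteins from the Golgi (log2 fold change -0.45, limma adjusted p = 0.0191), and Calu, the calcium-binding protein calumenin (log2 fold change -0.35, limma adjusted p = 0.0202), led them. Ero1a, the other ER oxidase, was not called (log2 fold change -0.22, limma adjusted p = 0.198), in the same libraries in which Ero1b fell, and the difference between them was not tested. Of 28 further ERAD genes, 1 fell and 1 rose after median-ratio scaling. On the deposited scale these genes fell in 5 of 28 (17.9%), near the 15.6 percent of all tested genes, and rose in 1. They were led by Selenok, a selenoprotein of the ERAD complex (log2 fold change -0.60, limma adjusted p = 0.00493), H13, the signal peptide peptidase (log2 fold change -0.50, limma adjusted p = 0.0148), and Man1b1, an ER mannosidase (log2 fold change -0.52, limma adjusted p = 0.0158). Vcp, the ATPase that pulls substrates out of the membrane, fell as well (log2 fold change -0.48, limma adjusted p = 0.0204) but was not called after median-ratio scaling (adjusted p = 0.0839). Of the genes that led these lists, Vkorc1l1 and Selenok were called after median-ratio scaling, while Kdelr2, Calu, H13 and Man1b1 were not (adjusted p = 0.119, 0.167, 0.0612 and 0.0628). The one riser, Marchf6, an ER ubiquitin ligase picked out after its values were seen, had a log2 fold change of 0.39 (limma adjusted p = 0.0325).

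Downstream effectors of the UPR fell in 8 of 18 genes (44.4%) and rose in 1, against 15.6 percent and 3.73 percent of all tested genes. After median-ratio scaling 3 (16.7%) fell and 1 rose, against 5.06 percent and 5.52 percent. Atf5, a stress-induced transcription factor, was at 191, 117, 145 and 94.7 FPKM in FG and 32.1, 38.5, 34.4 and 60.2 FPKM in SG, with no overlap. For Atf5 the log2 fold change was -1.70 (limma adjusted p = 0.00389). Creb3 (log2 fold change -0.51, limma adjusted p = 0.00619), an ER-membrane transcription factor, and Traf2 (log2 fold change -0.47, limma adjusted p = 0.0144), the adaptor that links IRE1 to JNK, followed. On the branch below PERK, some of the named genes were called and some were not. Atf4, its main transcription factor, was not called (log2 fold change -0.22, limma adjusted p = 0.435), and neither was Ppp1r15a (GADD34), which reverses the translation block (log2 fold change -0.24, limma adjusted p = 0.147). Ddit3 (CHOP) fell from 2.22 ± 0.406 to 1.25 ± 0.271 FPKM (SD, n = 4 each; log2 fold change -0.52, limma adjusted p = 0.0237) and Trib3 from 3.45 ± 0.699 to 1.53 ± 0.942 FPKM (log2 fold change -0.87, limma adjusted p = 0.0339), both without a call after median-ratio scaling (adjusted p = 0.0666 and 0.0734). Mbtps1, the site-1 protease that cleaves ATF6, was not called (log2 fold change -0.20, limma adjusted p = 0.146). Creb3l3 (CREBH), a liver factor cleaved by that protease, went the other way, with 115, 129, 109.8 and 129.6 FPKM in FG and 172, 159, 146 and 144 FPKM in SG. Every SG library was above every FG library, and Creb3l3 rose by 0.36 (SE 0.0938, limma adjusted p = 0.0305), or 0.53 (adjusted p = 0.0126) after median-ratio scaling.

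Several of these calls outside the set were lost in fits without 1 library. Such fits also moved the number of calls over all genes, from 1912 to between 834 and 2363 on the deposited scale. Kdelr2 was not called without FG 93, SG 103 or SG 104 (adjusted p up to 0.0548), Calu without FG 93, FG 95 or SG 104 (up to 0.0624), and Vcp without FG 93, FG 95 or SG 103 (up to 0.063). Leaving out FG 93 or 96, or SG 103 or 105, ended the call of Ddit3 (adjusted p up to 0.07), and leaving out FG 93 or 95, or SG 103 or 104, that of Creb3l3 (up to 0.0865). Trib3 was called in 1 of the 8 such fits, that without SG 101 (adjusted p up to 0.0949 in the others), and Marchf6 in 2, those without FG 94 or SG 101 (up to 0.0883).

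Secreted plasma proteins, the main load of this machinery in liver, were also listed. Of 25 such genes 0 were called lower, against 15.6 percent of all tested genes, and 2 higher, against 3.73 percent. These were Apoa1, the main protein of HDL (log2 fold change 0.44, limma adjusted p = 0.0447), and Plg, plasminogen (log2 fold change 0.34, limma adjusted p = 0.0344). Apoa1 was called in 0 of the 8 fits without 1 library and Plg in 1, that without FG 96 (adjusted p up to 0.102 and 0.0989). Without SG 101, 1 of the 25 was called lower, against 19.2 percent of all tested genes. It was Apoe (log2 fold change -0.34, limma adjusted p = 0.0381). After median-ratio scaling 5 were higher, against 5.52 percent of all tested genes, and 0 lower, against 5.06 percent. With 1 library left out on that scale, Plg was called in 6 of 8 fits, Apoa1 and Rbp4 in 2 each, and Ahsg and C3 in 1 each. The list's median log2 fold change was 0.031 on the deposited scale and 0.21 after scaling.

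**Figure D4:**
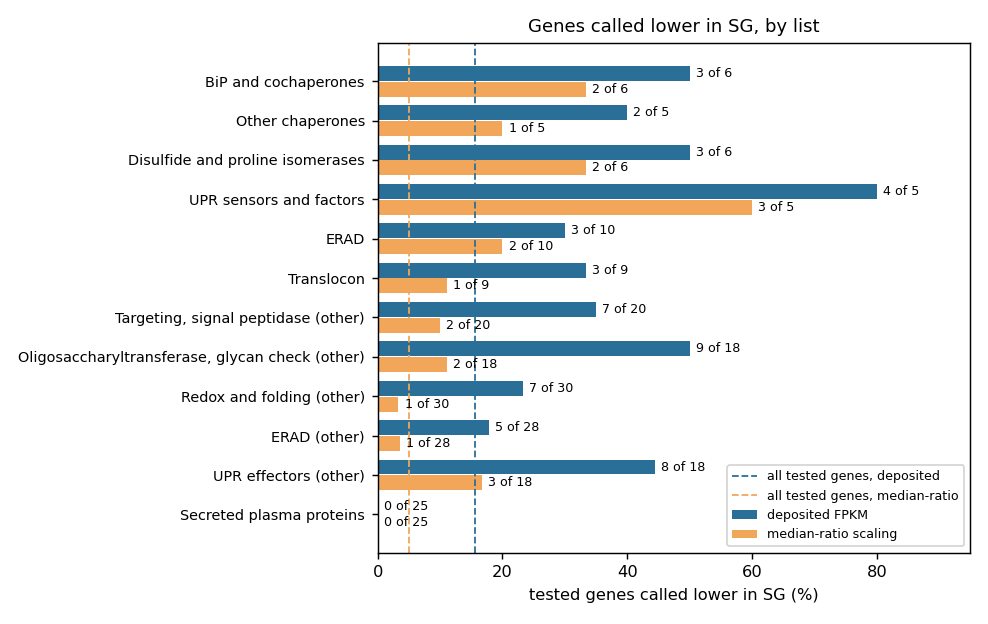
Share of tested genes called lower in SG (horizontal axis, percent, from 0) for the 6 roles of the ER set, the 5 further pathway lists and the secreted plasma proteins, on the deposited scale (blue) and after median-ratio scaling (orange), with the number of genes at each bar; dashed lines mark all tested genes, 15.6 percent and 5.06 percent. The UPR sensors and factors have the longest bars, 4 of 5 and 3 of 5, and the secreted proteins have none.

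Set beside the promoter sequences shown above, 5 of the 10 tested genes with an ERSE were called lower (Hspa5, Dnajc3, Canx, Pdia6 and Ero1b), 3 of them after median-ratio scaling, with a median log2 fold change of -0.44. Of the 23 tested genes with a window and neither element, 8 were called, 5 after median-ratio scaling, and their median was -0.32. Over all tested genes 15.6 percent were called lower, and 5.06 percent after median-ratio scaling. The 35 tested genes with a window held 13 of the 18 called genes. Hyou1, Manf, Derl1, Atf6, Sec61a1 and Ssr2 had no window and are left out of these counts. All of them but Ssr2 were called lower on the deposited scale. Of the 2 with an ERSE-II 0 were called. The genes with an ERSE thus spanned from Ero1b (-1.34) to Derl3 (0.048), and the 2 copies before Hsp90b1 stood beside a fold change of -0.016. These counts are a description of an exact letter match in a short window, and no test of the motif was made.

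Library totals, worked out from the step size of the FPKM, were 36545128 to 41977438 fragments, and the tested ER genes rested on 32 fragments (Derl3) to 79555 fragments (P4hb) in a library, with a median of 3601.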

How the data were processed

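Liver RNA of 4 FG and 4 SG libraries was read as pairs on an Illumina NovaSeq, per the labels' protocols. FPKM were computed by the authors and deposited for 21358 genes. The submitters' processing notes name the tools fastp, HISAT2, HTSeq and DESeq2 and the builds GRCm38 and mm10. Versions and the strand setting of the counting are not given there, so overlapping and antisense genes cannot be told apart. Libraries were matched to columns by their labels, and 0 columns stayed unmatched.

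Tested genes had 1 FPKM or more in 4 or more of the 8 libraries (9867 genes). A model of log2(FPKM + 1) on group was fitted in limma 3.58.1 (R 4.3.3) with trended empirical Bayes and no covariates. Tests were two-sided, with Benjamini-Hochberg adjustment over all tested genes and a threshold of 0.05. The script was tested on simulated data. Median-ratio scaling used the tested genes above 0 in all libraries. The exact permutation test ran over 70 assignments. Totals were worked out from the step size of the FPKM and fixed by 258 genes. They gave whole counts within 0.02 fragments for 245 of 248 listed genes and entered no test.

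The ER genes, their roles and all further lists (212 entries, 209 found) were chosen with earlier results of these data known. Part of the ER genes belong to a folding list already seen to be lower, so the direction of the set is not independent evidence. All 42 ER genes were named. Up to 3 called genes with the smallest p were named from each further pathway list, with Atf4, Ddit3, Trib3, Ppp1r15a, Creb3l3, Mbtps1, Ero1a, Rpn1, Vcp and Alb whatever their values. Marchf6, Cps1, Hpd, Rbp4, Ahsg, C3 and Apoe were named after their values were seen. Promoter windows and gene positions are those of RefSeq (GRCm38.p6), and exon overlap was read from the GENCODE annotation of the same build. Alternatives changed the pseudocount (0.1), the filter (no filter, or a mean of 5 FPKM or more), the scaling (median-ratio, trimmed mean, quantile), the threshold (0.01) and the libraries (each left out in turn, also after median-ratio scaling). Leaving out FG 94 and FG 96 together was added after the data were seen.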

Additional observations from a re-analysis of the deposited data

Results flagged for a closer look

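Each of the 41 tested ER genes was checked in both groups, 82 groups of 4 libraries, for 1 library far from the others on the log2(FPKM + 1) scale (Dixon's test). Chance alone flags about 1 group in 20, and 5 of the 82 were flagged, 3 of them through SG 101. Sdf2l1 was at 19.7 FPKM in SG 101 and at 5.01 to 6.13 FPKM in the other SG libraries. Sec61a1 was at 55.96 FPKM in SG 101 and at 36.5 to 37.5 FPKM in the others. Ssr2 was at 61.71 FPKM in SG 101 and at 45.5 to 46.6 FPKM in the others. Edem1 was at 28.22 FPKM in FG 94, below the 30.7 to 31.1 FPKM of the other FG libraries. Ssr3 was at 65.42 FPKM in SG 105, below the 70.05 to 70.8 FPKM of the other SG libraries, and all 4 SG values lay below the lowest FG value, 87.4 FPKM.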

How the results depend on the processing

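Of the ER genes, 18 were called lower with the deposited FPKM, 11 after median-ratio scaling, 11 after trimmed-mean scaling and 9 at an adjusted p below 0.01. Leaving out 1 library gave 4 to 27 genes (12 to 27 on the deposited scale, 4 to 16 after median-ratio scaling). The 4 came after scaling without FG 93 and without SG 104, and the 27 came without SG 101. In all these settings 0 were called higher. The median log2 fold change of the set was -0.262 after median-ratio scaling, -0.263 after trimmed-mean scaling and -0.469 to -0.199 with 1 library left out. Over all genes, 1912 were called, against 1133 with no filter, 1044 after median-ratio scaling, 1042 after trimmed-mean scaling and 1078 after quantile normalization. The stricter threshold gave 415, leaving out FG 94 and FG 96 gave 1111, and leaving out 1 library gave 495 to 2363. The cause was not tested.

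Signs of the log2 fold change turned for 10 ER genes, none of them called with all libraries. Median-ratio and trimmed-mean scaling gave Hsp90b1 0.1591 and 0.1579, Edem1 0.0656 and 0.0645, Sec62 0.0695 and 0.0683, and Sec63 0.0605 and 0.0593. Quantile normalization gave Herpud1 -0.0433, Edem1 0.02503, Sec62 0.02001 and Sec63 0.0304. Without FG 94 and FG 96, Hsp90b1 was at 0.1173 and Derl3 at -0.1102. With 1 library left out, on either scale, values ran from -0.0878 to 0.256 for Hsp90b1, -0.151 to 0.3798 for Herpud1, -0.167 to 0.1285 for Edem1, -0.404 to 0.0671 for Edem3 and -0.0507 to 0.259 for Derl3. They ran from -0.0425 to 0.311 for Os9, -0.06296 to 0.3201 for Sec61g, -0.155 to 0.196 for Sec62, -0.183 to 0.169 for Sec63 and -0.329 to 0.0296 for Ssr2.

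No paired analysis was possible because the groups share no replicate numbers. With 4 libraries a group the exact test cannot go below 0.0286.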
